A study of Homo sapiens with 16 samples.

Results

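The regions described here carried a peak of histone H3 lysine 27 acetylation (H3K27ac) in every list labelled Hs578T and in no list labelled MDA-MB-231. Peaks of 16 lists were merged wherever they shared 1 bp, which gave 64545 regions. Members were chosen by peak presence alone, as regions with a peak in all 8 Hs578T lists and in none of the 8 MDA-MB-231 lists. They numbered 181, or 0.280% of all merged regions, and are called Hs578T-only regions below. Since presence in one line and absence in the other selected them, the difference between the lines is a description and was not tested.

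Hs578T and MDA-MB-231 are long-established lines grown from human breast tumours of the triple-negative type (TNBC), which lack oestrogen and progesterone receptors and HER2 amplification. Each was profiled as CRISPR control cells and as knockout (KO) cells lacking Fn14, the receptor of the cytokine TWEAK. Both genotypes were starved for 8 h and then left untreated or given TWEAK at 10 ng/ml for 48 h, with fresh ligand after 24 h. Each of the 4 combinations within a line had 2 replicates, and H3K27ac ChIP-seq gave 1 peak list per replicate. The KO had been made with a doxycycline-inducible Cas9 vector and a pair of guides, and the study checked the cells by western blot and Sanger sequencing with genotyping primers meant for CRISPR clones. How many clones made up the KO cells was not stated. The study's methods call ChIP-seq replicates biological, and the labels do not tie them to cultures or days. P-values measure only the spread between these lists.

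H3K27ac is deposited on nucleosomes by the acetyltransferases p300 and CBP, and marks active promoters and enhancers. Promoter acetylation is shared widely among cell types, whereas enhancer acetylation differs between them and helps to distinguish one cell type from another. TWEAK binding to Fn14 activates non-canonical NF-κB and JNK signalling, and JNK acts on AP-1, a dimer of JUN and FOS family proteins that binds many enhancers.

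The line labels themselves were checked against the start sites of 418 genes in 14 lists. Peaks within 2 kb of a start were found in all 16 lists for 181 genes and in none for 174, and no gene had a peak in all lists of one line and none of the other. Hs578T is known as a mesenchymal, fibroblast-like line. Of 32 matrix genes, 17 had start peaks in all 16 lists (among them COL1A1, FN1, VCAN and LOX) and 12 in none (among them COL1A2, COL3A1, POSTN, LUM and DCN). Of 53 mesenchymal and developmental transcription factors, 22 had them in all 16 lists (among them ZEB1, ZEB2 and SNAI2) and 24 in none (among them TWIST1 and PRRX1). Of 26 epithelial genes, 12 had them in all 16 lists (among them EPCAM, KRT19, CLDN4 and ESRP2) and 8 in none (among them CDH1, ESRP1, KRT5 and KRT14). Of 12 luminal markers, 7 had them in all lists, TFF1 included, and 2 in none, ESR1 and PGR. Over the 418 genes, 39 had start peaks in more Hs578T than MDA-MB-231 lists and 16 in fewer. Hs578T lists held 44431 to 47197 peaks each and MDA-MB-231 lists 39544 to 46295. The part of list length in such counts was not tested. Start peaks in all 8 lists of a line were found for 16 epithelial genes in Hs578T and 12 in MDA-MB-231. Matrix genes numbered 17 and 17, and mesenchymal and developmental factors 22 and 22. The widest gaps favouring Hs578T were at HOXB5 (8 lists and 1), COL5A2 and HOXA13 (7 and 1 each) and WNT2B (6 and 0). Next were SNAI1 and HOXB2 (6 and 1 each), and DKK2 and the epithelial gene CLDN3 (8 and 3 each). In the other direction, WNT1 had 0 and 5. These examples were chosen after their values were seen. Pairs of lists from different lines shared a median of 74.4% of their regions (range 68.3% to 80.7%), beside 80.5% for pairs within Hs578T and 78.4% for pairs within MDA-MB-231, and the ranges overlapped. Both epithelial and mesenchymal genes thus had start peaks in lists of either line. Peak lists carry no sequence, so whether the labels name the cells correctly could not be tested, and "Hs578T" below means the lists so labelled.

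Presence in all 8 Hs578T lists was usually accompanied by presence in MDA-MB-231. Of the 32766 regions with a peak in all 8 Hs578T lists, 28337 (86.5%) also had one in all 8 MDA-MB-231 lists, and the Hs578T-only regions made up 0.552%. Between these extremes, 152 regions had a peak in 1 MDA-MB-231 list and 1585 had peaks in 7. The reverse pattern, all 8 MDA-MB-231 lists and no Hs578T list, was met by 84 regions. The lines also differed in list length, as given above.

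**Figure D1:**
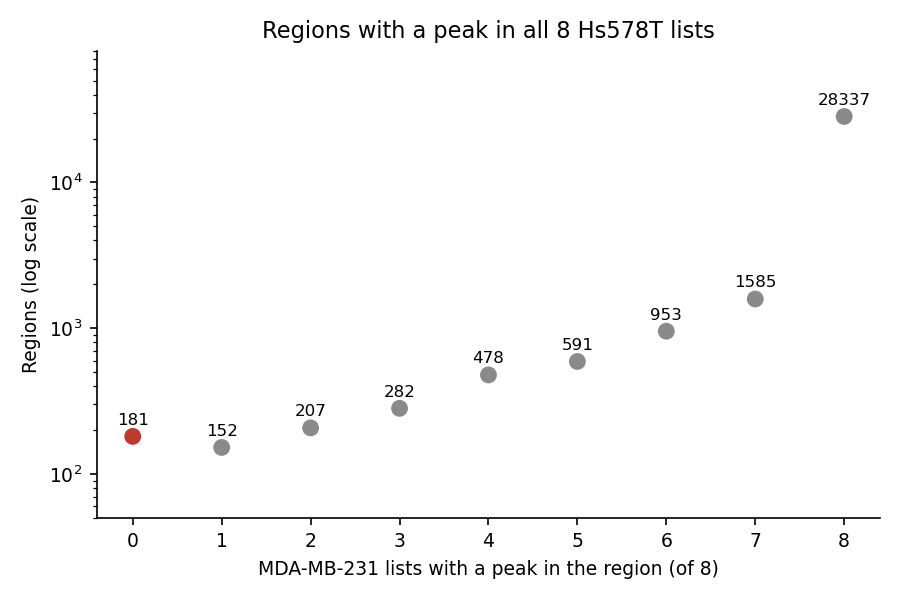
Number of regions with a peak in all 8 Hs578T lists (vertical axis, log scale) by the number of MDA-MB-231 lists that also had a peak there (horizontal axis). Each point is 1 such count, and the red point at 0 lists marks the 181 Hs578T-only regions, beside 28337 shared by all 8 MDA-MB-231 lists.

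Sequences of the region centres are shown for 4 of the 5 members with the highest mean log2 fold enrichment, since these carry the strongest acetylation among the Hs578T-only regions. Each is the central 300 bp in hg38, on the plus strand, with no exon inside. Capitals mark matches, on either strand, to AP-1 (TGANTCA) or to the homeodomain core (TAATTA), and letters without capitals hold neither. N stands for any base, so the AP-1 letters take TGAATCA, as in FAT1, as well as TGACTCA, as in PRDM9.
PRKAR1B, chr7:604173-604472: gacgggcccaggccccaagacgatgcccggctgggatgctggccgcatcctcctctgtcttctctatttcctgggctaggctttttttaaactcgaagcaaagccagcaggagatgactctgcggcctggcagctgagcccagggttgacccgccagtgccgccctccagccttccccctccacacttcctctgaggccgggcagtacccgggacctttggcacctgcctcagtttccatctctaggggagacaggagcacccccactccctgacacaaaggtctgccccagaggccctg
SDK1, chr7:3754844-3755143: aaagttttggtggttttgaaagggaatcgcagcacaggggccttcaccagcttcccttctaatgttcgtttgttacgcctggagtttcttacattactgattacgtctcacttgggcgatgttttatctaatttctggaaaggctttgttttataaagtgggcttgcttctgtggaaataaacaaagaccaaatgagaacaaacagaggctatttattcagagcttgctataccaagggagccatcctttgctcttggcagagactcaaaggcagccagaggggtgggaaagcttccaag
FAT1, chr4:186765539-186765838: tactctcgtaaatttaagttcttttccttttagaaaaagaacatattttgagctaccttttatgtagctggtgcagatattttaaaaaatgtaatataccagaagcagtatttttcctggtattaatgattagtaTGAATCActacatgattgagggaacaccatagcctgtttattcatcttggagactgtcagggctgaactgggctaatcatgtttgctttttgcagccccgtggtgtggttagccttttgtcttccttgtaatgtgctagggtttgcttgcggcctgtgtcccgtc
PRDM9, chr5:23629324-23629623: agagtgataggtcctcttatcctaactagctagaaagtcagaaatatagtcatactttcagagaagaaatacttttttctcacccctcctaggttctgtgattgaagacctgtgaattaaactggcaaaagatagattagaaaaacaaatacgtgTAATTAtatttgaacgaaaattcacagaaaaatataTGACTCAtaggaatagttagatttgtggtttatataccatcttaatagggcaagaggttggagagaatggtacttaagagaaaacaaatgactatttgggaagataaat

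The PRKAR1B centre was rich in G and C (63.0%) and held 10 CpG dinucleotides, while the PRDM9 centre had 32.3% G and C and 2 CpG. Over all members the median G and C content of the centre was 44.3% (quartiles 39.7% and 51.7%), beside 48.7% in regions of all 16 lists and 46.0% in all merged regions. The MDA-MB-231-only regions had the same median, 44.3%. A centre above 60% was found in 9 members (4.97%), beside 8.33% of MDA-MB-231-only regions and 24.4% of regions in all 16 lists.

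Levels in the Hs578T-only regions were low. Fold enrichment, the ratio of ChIP signal to local background as MACS2 wrote it, was averaged over the peaks of a list in a region, weighted by peak length. Median values over the members ran from 3.50 in control TWEAK replicate 1 to 3.94 in Fn14 KO untreated replicate 1, and the other 6 lists lay between 3.61 and 3.73. In the same lists the regions shared by all 16 had medians from 7.32 to 7.96. The MDA-MB-231-only regions had medians from 3.92 to 4.37 in the MDA-MB-231 lists, so low levels were not particular to the members. Mean fold enrichment over the 8 lists was under 4 in 122 members and over 5 in 24. In each list between 8.29% and 12.7% of the members exceeded that list's median peak. Within a member, the highest list was a median of 1.48 times the lowest, and at most 2.71 times.

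**Figure D2:**
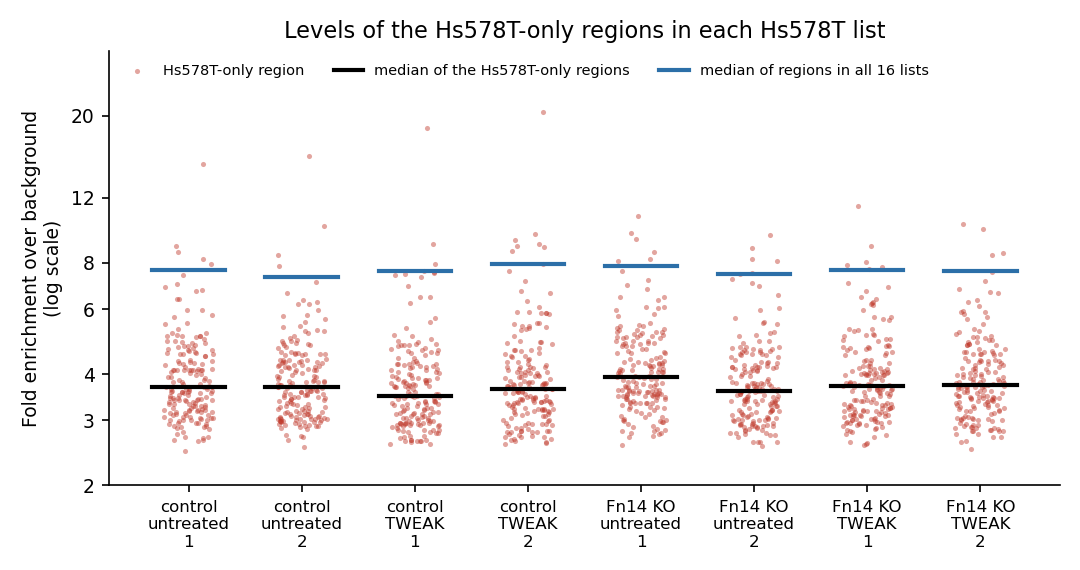
Fold enrichment over background (log scale) of the 181 Hs578T-only regions in each of the 8 Hs578T lists, named by genotype, treatment and replicate. Points are regions, black lines their medians (3.50 to 3.94) and blue lines the medians of regions in all 16 lists (7.32 to 7.96), so that most points sit below the blue line in every list.

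Many members also lay close to the calling threshold, and their peaks were narrow. The lowest −log10 q-value among the 8 lists was under 2 in 100 members and at least 3 in 45. Members had a median width of 1324 bp (quartiles 1094 and 1703 bp, range 683 to 6435 bp), beside 2639 bp in regions of all 16 lists and 1460 bp over all merged regions. In 174 of the 181 the region was 1 peak in every list. Together they covered 270.8 kb, of which single lists covered from 54.1% in control TWEAK replicate 1 to 71.9% in Fn14 KO TWEAK replicate 1.

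Regions just outside the rule had list medians below or overlapping those of the members (3.50 to 3.94). With 8 Hs578T lists and 1 MDA-MB-231 list, the medians were 3.25 to 3.71 in Hs578T lists, which overlaps the members. With 7 Hs578T lists they were lower than in any list of the members. A further 190 regions had peaks in 7 Hs578T lists and no MDA-MB-231 list, with list medians of 3.16 to 3.36, and the list without the peak was control TWEAK replicate 1 in 76 of them. Highest among these were regions tied to CMIP (mean 5.24 over its 7 lists), SDK1 (5.10), SPHKAP (4.77), MALRD1 (4.69) and USP2 (4.42). Of the 152 regions with 1 MDA-MB-231 list, the extra list was Fn14 KO untreated replicate 1 in 57 and control untreated replicate 2 in 38, which are the lists with the most MDA-MB-231 peaks (46295 and 44585). The highest of these in Hs578T were tied to STON2 (mean 7.79, and 2.85 in the MDA-MB-231 list), MYO10 (5.59 and 2.61), RBL2 (5.45 and 2.98), TSPAN8 (5.41 and 3.10) and CNPY1 (5.20 and 2.56).

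Away from promoters lay most Hs578T-only regions. Within 2 kb of a protein-coding start there were 17 (9.39%, exact binomial 95% interval 5.57% to 14.6%), while 83 (45.9%) lay in gene bodies beyond that distance and 81 (44.8%) between genes. Over all merged regions 22.7% were near a start, as were 38.9% of regions in all 16 lists and 0 of the 84 MDA-MB-231-only regions. Coding-gene exons were touched by 23 members (12.7%). The median distance to a start was 42.6 kb, beside 19.3 kb over all merged regions, and 56 members (30.9%) lay more than 100 kb from one.

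**Figure D3:**
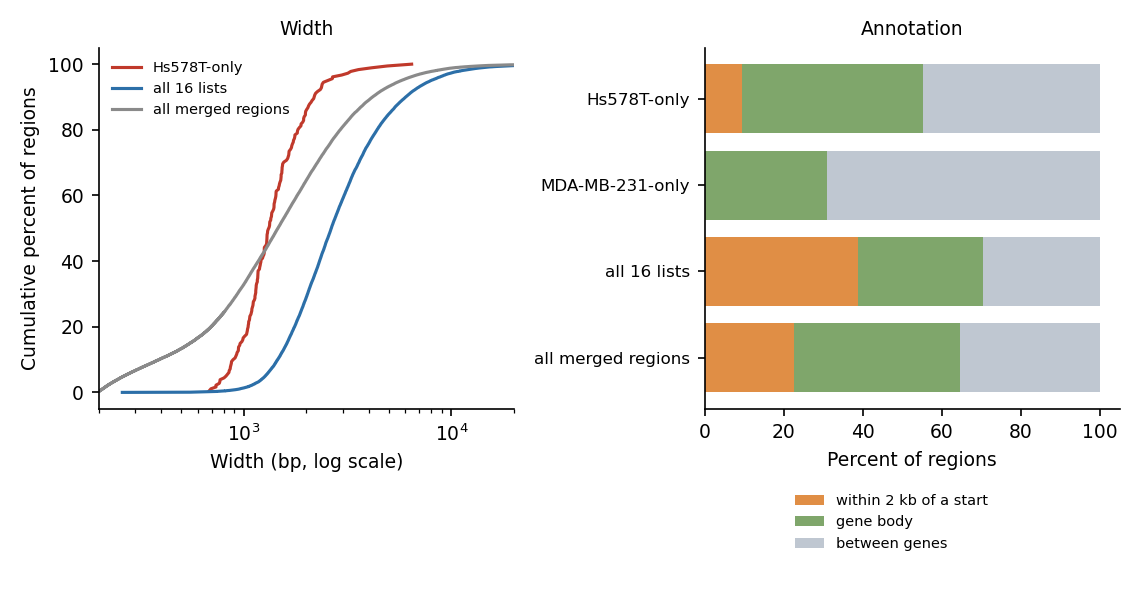
Left, cumulative percent of regions by width (bp, log scale) for Hs578T-only regions, regions in all 16 lists and all merged regions. Right, percent of regions within 2 kb of a protein-coding start, in a gene body or between genes, with 9.39% of Hs578T-only regions near a start beside 38.9% of regions in all 16 lists.

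A gene could be tied to 132 members, by a start within 2 kb, by overlap or by the nearest start within 100 kb. These were 121 genes, 0.604% of 20020 protein-coding genes. One member each was tied to 113 of them, 2 to 5 genes and 3 to 3 genes.

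The strongest member lay 505 bp from a start of PRKAR1B, which encodes a regulatory subunit of protein kinase A (chr7:603188-605457, 2270 bp). Its fold enrichment was 14.8 and 15.6 in the untreated control lists, 18.6 and 20.5 in the TWEAK-treated control lists, 9.65 and 9.49 in untreated KO and 8.89 and 10.2 in TWEAK-treated KO. All 4 control lists thus exceeded all 4 KO lists. Other starts of PRKAR1B had peaks in all 16 lists, and the nearest MDA-MB-231 peak to the member was 30.4 kb away.

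Next in level came chr6:19556011-19558144, 279 kb from ID4, an inhibitor of basic helix-loop-helix factors, with 8.18 to 11.4 over the 8 lists. The members in SDK1, a cell adhesion gene (chr7:3753969-3756019), and 37.6 kb from FAT1, an atypical cadherin (chr4:186764355-186767023), ranged from 6.91 to 9.85 and from 7.16 to 8.90. These and PRKAR1B were the 4 members with the highest means. In only 2 of the 181 members did every list exceed the median of its regions shared by all 16.

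The remaining 11 of the 15 highest had means between 5.76 and 6.69. PRDM9, the meiotic histone methyltransferase, was nearest to the highest of these, 119 kb away, and NPAS2, a circadian transcription factor, lay 111 kb from the next. The member 384 kb from DEPDC1, a gene expressed in dividing cells, averaged 6.38. Members near CAMK2D, a subunit of calcium/calmodulin-dependent kinase II, and RERGL, a RAS-like gene, averaged 6.25 and 6.22. Others of the 11 lay near ACO1, SPRY2 (an inhibitor of receptor tyrosine kinase signalling), TMEM132B and SSX4B, and one lay inside HMCN1 (hemicentin 1).

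Genes with the most members were STXBP6, which encodes a syntaxin-binding protein, CAMK2D and FRMD3, a FERM-domain gene, with 3 each. The STXBP6 members spanned 148 kb, with means of 3.58 to 5.44, and lay in a stretch of 1838 kb without any MDA-MB-231 peak. The CAMK2D members spanned 295 kb (3.40 to 6.25), where 5 of 23 regions over the gene were shared by all 16 lists. FRMD3 had members at a start and in the gene body over 259 kb (3.99 to 5.36), and 2 of its 16 regions were shared by all lists. With 2 members each, MAL2 (an epithelial transcytosis protein), SDK1, ABLIM1 (an actin-binding protein), STON2 (an endocytic adaptor) and LAMA4 (a laminin chain) completed the genes with more than 1.

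By width, the leading single-member genes were SMURF2, an E3 ubiquitin ligase acting on TGF-beta signalling (4131 bp), HOXB3 (3278 bp), SLC13A1, a sulfate transporter (2961 bp), FGF1 (2678 bp), FAT1 (2669 bp), RERGL (2541 bp) and RXRA, a retinoid X receptor (2418 bp). The widest member of all was 6435 bp, 119 kb from PRDM9 (chr5:23626257-23632691), followed by the MAL2 start (4911 bp) and SMURF2. Another MAL2 member (3566 bp) and a region near PSAT1 (3170 bp) were also among the 10 widest. The SMURF2 member was the weakest of all 181, with a mean of 2.75.

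At start sites, 18 genes had a member within 2 kb, 0.0899% of coding genes. Of these, 9 had a peak in all 8 MDA-MB-231 lists at the same or another start, namely PRKAR1B, FGF1, ATF7IP, BOLA1, MIOS, SEL1L3, SETD7, STON2 and ZDHHC14. For 6 there was none in any MDA-MB-231 list, namely ABCC11, HOXB4, IPCEF1, LAMA4, MAL2 and PCDH20, and HOXB3, VASN and FRMD3 were intermediate. The merged region reached the HOXB4 and MAL2 starts, but single peaks came within 2 kb of a start in only 2 and 4 of the 8 Hs578T lists. The PCDH20 member covered the only coding start of this protocadherin gene, with values of 2.94 to 4.84. At the LAMA4 start the values were 2.65 to 3.94.

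Some genes of the 14 lists held members. Counting each gene once, 5 of 418 had a member tied to them, HOXB3, FGF1, EFNA5, CDH1 and FAT1. Over all coding genes it was 121 of 20020 (0.604%). Within 2 kb of a start, 3 of the 418 had one, HOXB3, HOXB4 and FGF1, beside 18 of 20020 (0.0899%). The lists were chosen with earlier results known, and these shares were not tested. HOXB3 and HOXB4, homeobox genes of the HOXB cluster, shared one member. FGF1, a fibroblast growth factor, had start peaks in all 16 lists besides its member. CDH1, encoding E-cadherin, had a member in its gene body 44.3 kb from its start (2.89 to 4.57), while no list of either line had a peak at a CDH1 start. No member was tied to a gene of the lists of fibrillar collagens and matrix proteins, mesenchymal and developmental transcription factors, contractile and smooth muscle genes, TGF-beta and BMP, WNT, integrins, luminal markers, leukocyte and endothelial markers or 9p21. These lists hold 6 to 53 genes each. With 0.604% of coding genes tied to a member, that is too few for an empty list to be read as avoidance.

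Along chromosomes the members were scattered. With gaps of up to 50 kb, 15 (8.29%) had another member beside them, compared with 38.1% of MDA-MB-231-only regions and 83.4% of regions in all 16 lists, sets that differ in number. The only run of 3 spanned 42.7 kb on chromosome 1 (chr1:68881240-68923966), at least 384 kb from DEPDC1. Pairs lay near ETV1, an ETS factor (5.56 kb), and at STON2 (12.3 kb), MAL2 (32.8 kb), FRMD3 (39.3 kb), LAMA4 (40.2 kb) and STXBP6 (42.9 kb). Neighbouring members on a chromosome were a median of 6.43 Mb apart. Among 1 Mb bins, the fullest held 4 members, at 113 to 114 Mb of chromosome 4, where 1 was tied to ANK2 and 3 to CAMK2D.

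MDA-MB-231 peaks were close to many of them. The nearest was a median of 12.8 kb away (0.908 to 1640 kb), with 53 members within 5 kb of one and 13 with none within 200 kb. The longest stretch free of MDA-MB-231 peaks around a member was 5090 kb, near TGIF2LX on the X chromosome. A stretch of 3648 kb on chromosome 5 held both PRDM9 members.

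By chromosome the distribution was uneven. Chromosome 4 held 30 members, 16.6% of them beside 6.06% of all merged regions, and chromosomes 5, 7 and 14 held 21, 18 and 12. Together these 4 chromosomes held 81 members (44.8%) and 20.3% of regions. Chromosome 7 also held 17 of the 84 MDA-MB-231-only regions (20.2%), a larger share than its 9.94% of members. Chromosomes 19 and 22 held none, with 2187 and 1059 regions. Members were 1.59% of the regions in all 8 Hs578T lists on chromosome 4, 1.18% on chromosome 14, 1.15% on chromosome 5 and 1.01% on chromosome 7, beside 0.552% over the genome. The 30 members of chromosome 4 ran from SEL1L3 to beyond FAT1.

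Levels in shared regions, which are not members, also differed by chromosome. For the regions in all 16 lists, fold enrichment centred on each list's median was compared between lines. Its median difference, Hs578T minus MDA-MB-231 on the log2 scale, was 0.16 on chromosome 4, 0.12 on chromosome 10, 0.07 on chromosome 5, 0.04 on chromosome 14 and 0.03 on chromosome 7, and negative on chromosomes 19 (−0.12), 22 (−0.12), 8 (−0.15) and X (−0.15). Within 1 Mb of a member the median difference was 0.06 over 3531 shared regions, beside −0.03 over the other 24806. Around 126 of the 176 members with a shared region within 1 Mb the local median was positive, and around 10 it exceeded 0.5. Of these 10, 7 lay on chromosome 7, with local medians of 0.54 to 0.66, although the median over that chromosome was 0.03. The highest local medians, 1.43 and 1.08, rested on 2 and 1 shared regions. Of the 166 members with at least 5 shared regions within 1 Mb, 118 had a positive local median. Windows of neighbouring members overlap, so these counts reuse shared regions. Around MDA-MB-231-only regions the local median was negative for 50 of 60. DNA copy number was not measured in these files, and the part of this offset in the chromosome counts was not tested.

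**Figure D4:**
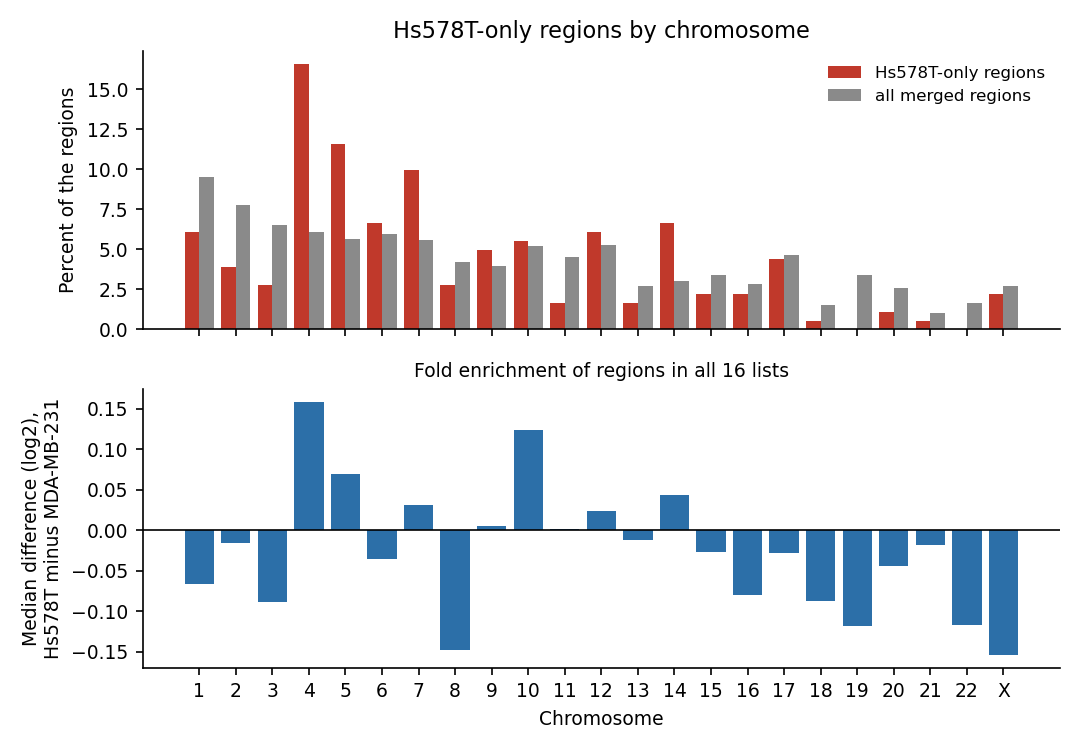
Top, percent of the 181 Hs578T-only regions and of all 64545 merged regions on each chromosome. Bottom, median difference between Hs578T and MDA-MB-231 (log2 fold enrichment, centred per list) over regions in all 16 lists, which was highest on chromosome 4, where 16.6% of the Hs578T-only regions lie.

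Short motifs were counted in the 300 bp centres, on both strands, as matching letters and not as bound sites. AP-1 (TGANTCA) was matched in 28.2% of members, 25.2% of all merged regions and 29.8% of MDA-MB-231-only regions. The homeodomain core (TAATTA) was matched in 24 members (13.3%), beside 7.14% of all merged regions and 6.33% of regions in all 16 lists. GATA letters (AGATAA) were in 20.99% and 15.9% of members and all regions, and FOX letters (TGTTTAC) in 7.18% and 5.67%. STAT letters (TTCNNNGAA) were in 12.7% and 9.48%. ETS letters (CCGGAAG), frequent at promoters, were in 1 member (0.552%) beside 2.96% of all regions and 4.86% of regions in all 16 lists. For TEAD (GGAATGT) the shares were 6.63% and 5.80%, for NF-κB (GGANTTNCC) 6.08% and 4.81%, for C/EBP (TTGCNNAA) 16.02% and 14.3%, for the TWIST-type E-box (CAGATG) 19.9% and 18.7% and for SOX (ACAATGG) 4.42% and 3.64%. NFI letters (TTGGCA) were in 17.1% and 15.9%. RUNX letters (TGTGGTT) and the ZEB and SNAI E-box (CAGGTG) were in 6.08% beside 8.18% and 17.7% beside 20.98%. Over whole regions the homeodomain letters were in 38.7% of members and 35.9% of all merged regions. Members had a lower median G and C content than regions in all 16 lists and all merged regions, and the same median as MDA-MB-231-only regions (44.3%). The part of G and C content in these shares was not tested.

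Whether the Hs578T-only regions responded to TWEAK or differed with Fn14 was asked within the 8 Hs578T lists, using levels. The rule used levels only in that a peak had to be called in every list. Levels were compared with limma over all 32766 regions with a peak in all 8 lists, as log2 fold enrichment centred on each list's median. A region that lost its peak in any condition is outside this set, so a change large enough to cross the calling threshold could not be seen. The contrasts share lists, and their values are given side by side.

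In control cells, TWEAK raised 7 members (3.87%, beside 13.4% of all regions tested) and lowered 15 (8.29%, beside 12.9%) at an adjusted p under 0.05. The median change over members was −0.07 on the log2 scale, and −0.00 over all regions tested. In Fn14 KO cells, TWEAK changed 0 members in either direction, and 0% of all regions tested rose and 0% fell. There, 17 members had an unadjusted p under 0.05 in limma, 9.39% of them beside 2.56% of all regions.

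The largest rise under TWEAK in control cells was 40.8 kb from EMB, encoding embigin, a partner of monocarboxylate transporters (chr5:50386765-50387926). Its fold enrichment was 4.07 and 4.33 untreated, 7.51 and 8.81 with TWEAK, 5.18 and 4.64 in untreated KO and 4.64 and 4.94 in TWEAK-treated KO. Only the TWEAK-treated control lists stood above the rest, and the log2 change in control cells was 0.91 (SE 0.13, limma adjusted p = 0.000128).

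Smaller rises were seen near PROK1, encoding a prokineticin (0.54, SE 0.14, adjusted p = 0.0122), in ANGPT2, encoding angiopoietin 2 (0.50, SE 0.13, adjusted p = 0.0118), and in PRDM9 (0.48, SE 0.14, adjusted p = 0.0212). The 6435 bp region near PRDM9 rose by 0.45 (SE 0.13, adjusted p = 0.0207). It measured 5.95 and 6.19 untreated and 7.93 and 9.22 with TWEAK in control cells, and 5.70 to 6.80 in the 4 KO lists.

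Of the falls, the one at HOXB3 (chr17:48574222-48577499) had the smallest adjusted p. Its values were 5.97 and 5.74 untreated, 3.49 and 3.37 with TWEAK, 6.09 and 5.46 in untreated KO and 5.97 and 5.87 in TWEAK-treated KO. Both TWEAK-treated control lists thus lay below the other 6, and the change was −0.81 (SE 0.12, adjusted p = 0.000207). The region 133 kb from ZNF92, a zinc finger gene, changed by −0.85 (SE 0.21, adjusted p = 0.00765), from 4.53 and 6.25 to 3.48 and 2.67.

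In JAZF1, a zinc finger gene, the values went from 5.18 and 4.91 to 2.64 and 3.53 (−0.77, SE 0.14, adjusted p = 0.00132). In SLC4A4, a sodium bicarbonate cotransporter, they went from 5.18 and 3.86 to 2.94 and 2.66 (−0.72, SE 0.16, adjusted p = 0.00454). In the STXBP6 member at chr14:24965621-24966914 they went from 4.55 and 4.18 to 2.77 and 2.94 (−0.65, SE 0.15, adjusted p = 0.00533). Groups did not overlap at any of these 3. The other STXBP6 members were not called (−0.11 and −0.23, limma adjusted p = 0.68 and 0.297). Over 14 settings the EMB and STXBP6 calls passed in all 14, those at HOXB3 and JAZF1 in 13, ZNF92 in 12, SLC4A4 and PROK1 in 11 and both PRDM9 members in 10, while ANGPT2 passed in 10 of 13. With fold enrichment multiplied by covered length, the adjusted p was 0.0893 at HOXB3, 0.709 at JAZF1, 0.0782 at SLC4A4, 0.158 at ANGPT2, 0.16 at the member in PRDM9 and 0.592 at PROK1, where the change was 0.22.

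The difference between the TWEAK effects in KO and control cells was called in 10 members, 8 with a higher value in KO (4.42%, beside 5.38% of all regions) and 2 with a lower one (1.105%, beside 6.03%). At EMB the difference was −0.94 (SE 0.18, adjusted p = 0.00436) and at PROK1 −0.73 (SE 0.20, adjusted p = 0.0308). At HOXB3 it was 0.86 (SE 0.17, adjusted p = 0.00529), and at VASN, a TGF-beta-binding membrane protein, 0.77 (SE 0.17, adjusted p = 0.0111). NEDD9, an adhesion scaffold gene, SLC4A4 and the FRMD3 start had differences of 0.84, 0.98 and 0.94, with adjusted p = 0.0206, 0.0138 and 0.0256. At the other FRMD3 members the differences were −0.02 and 0.24, and neither was called. Over 14 settings EMB and HOXB3 passed in 13, NEDD9 and SLC4A4 in 9, FRMD3 in 8 and PROK1 in 6, and VASN in 10 of 13. With fold enrichment multiplied by covered length, the PROK1 difference was −0.05 (adjusted p = 0.956) and that at SLC4A4 0.59 (adjusted p = 0.625). The call count fell from 10 to 3 without control TWEAK replicate 1, 4 without Fn14 KO untreated replicate 2, 5 without Fn14 KO TWEAK replicate 1 and 6 without control TWEAK replicate 2. For TWEAK in control cells, 22 calls became 11 without control TWEAK replicate 1 and 10 without control TWEAK replicate 2.

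Without TWEAK, Fn14 KO and control cells differed in 8 members, 3 higher in KO (1.66%, beside 0.333% of all regions) and 5 lower (2.76%, beside 0.772%). Highest in KO was the region 236 kb from SPRY2 (chr13:80577092-80579071), with 4.31 and 4.78 in untreated control, 9.27 and 7.49 in untreated KO, 3.46 and 4.18 in TWEAK-treated control and 8.05 and 8.53 in TWEAK-treated KO. Every KO list exceeded every control list, and the untreated difference was 0.85 (SE 0.14, adjusted p = 0.0103). Members near FSIP2, a sperm fibrous sheath gene, and in CREB5, a CRE-binding transcription factor, were also higher, by 0.64 (SE 0.13, adjusted p = 0.0293) and 0.79 (SE 0.18, adjusted p = 0.0496).

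Lower in KO were PRKAR1B (−0.70, SE 0.13, adjusted p = 0.0181), the region 156 kb from SEC23A, a COPII coat gene (−0.73, SE 0.15, adjusted p = 0.0301), DRD1, a dopamine receptor (−0.62, SE 0.14, adjusted p = 0.0493), RERGL (−0.56, SE 0.12, adjusted p = 0.0391) and the second SDK1 member (−0.54, SE 0.12, adjusted p = 0.0493). These calls were the least stable. Leaving out any 1 of the 8 lists gave between 0 and 4 calls, with 0 without control untreated replicate 1 and without Fn14 KO untreated replicate 1.

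With TWEAK, 39 members differed between KO and control cells, 23 higher (12.7%, beside 17.6% of all regions) and 16 lower (8.84%, beside 17.9%). The largest differences upward were near SPRY2 (1.15, SE 0.14, adjusted p = 2.13e-05), near FSIP2 (0.98, SE 0.13, adjusted p = 4.84e-05), at HOXB3 (0.81, SE 0.12, adjusted p = 0.000116), near ZNF92 (0.79, SE 0.21, adjusted p = 0.00797) and in NEDD9 (0.77, SE 0.15, adjusted p = 0.00111). Downward they were at PRKAR1B (−1.01, SE 0.13, adjusted p = 2.87e-05) and near TMEM132B (−0.94, SE 0.18, adjusted p = 0.000947). The second SDK1 member, chr7:4005702-4007404, followed (−0.81, SE 0.12, adjusted p = 0.000153). EMB (−0.74, SE 0.13, adjusted p = 0.000367) and HMCN1 (−0.64, SE 0.13, adjusted p = 0.00158) came next. The stronger SDK1 member, chr7:3753969-3756019, was not called (0.17, limma adjusted p = 0.382). At SPRY2, FSIP2, PRKAR1B and the second SDK1 member a genotype difference was also called without TWEAK, in the contrast with the least stable calls. At SDK1 that call lay at the threshold (limma adjusted p = 0.0493). At HOXB3 and EMB the untreated lists of both genotypes lay close together. Near TMEM132B and in HMCN1 the untreated differences were −0.45 and −0.35, and in NEDD9 and near ZNF92 they were −0.07 and 0.01, none of them called. Without control TWEAK replicate 2 the 39 calls became 22, and without Fn14 KO TWEAK replicate 1 they became 25.

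**Figure D5:**
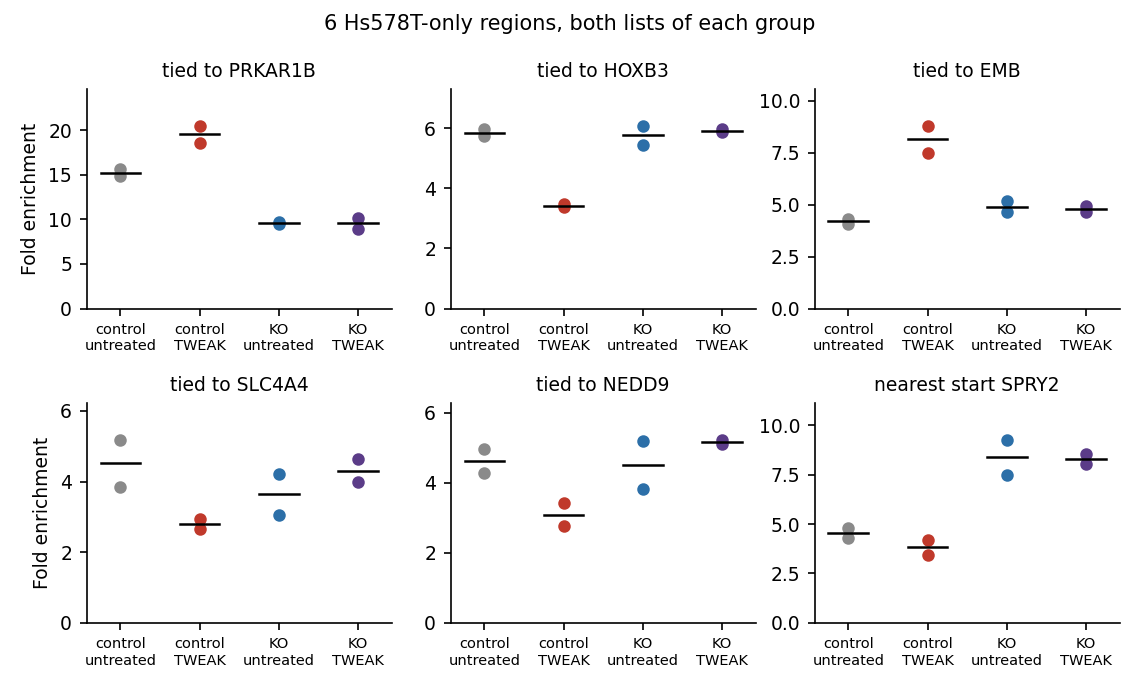
Fold enrichment (linear axes from 0) of 6 Hs578T-only regions in the 4 Hs578T groups, where points are the 2 lists of a group and lines their mean. HOXB3, SLC4A4 and NEDD9 are lowest and EMB highest in control cells given TWEAK, while PRKAR1B is higher in both control groups and the region nearest SPRY2 higher in both KO groups.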

How the data were processed

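H3K27ac ChIP-seq of 2 lines, 2 genotypes and 2 treatments was deposited as 1 broad-peak list per sample, called separately. Per the study's methods, the authors checked reads with FastQC, trimmed them (Trimmomatic), aligned them to hg38 (Bowtie2), called peaks with MACS2 after input subtraction and removed blacklisted regions with bedtools. Versions are not given in the sources used here. The deposited score was not used for any result. The deposited fold enrichment (a ratio) and the deposited −log10 p-value and q-value are the authors' values. No read counts were used, so depth is unknown and intervals cover counting of regions only.

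Regions were annotated with GENCODE 44 protein-coding genes. Named genes and regions followed a written rule: the 15 genes with the most members, the 15 highest and 10 widest members, runs of neighbours, list genes at a start, up to 5 called members each way per contrast and 5 regions of each kind just outside the rule. Others named, such as the genes at starts, were chosen after their values were seen. The members and gene lists were chosen with earlier results of these data known. Levels in Hs578T lists were tested with limma 3.58.1 (R 4.3.3; 4 groups of 2, Benjamini-Hochberg, threshold 0.05), and the code was tested on simulated data. The authors' read-based differential analysis was not repeated. Of the highest members, 1 and some sequences are not reported here.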

Additional observations from a re-analysis of the deposited data

Results flagged for a closer look

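Members of which the response to TWEAK differed between Fn14 KO and control cells, by limma's test of that difference over 32766 regions, were 10 in number. They were 8 with a higher value in KO (4.42%, beside 5.38% of all regions) and 2 with a lower one (1.105%, beside 6.03%), both shares below those of all regions. The differences, KO minus control on the log2 scale, were −0.94 at EMB and −0.73 at PROK1, of which the latter passed in 6 of 14 settings. They were 0.71 at EXOC1 (an exocyst gene), 0.71 at ATP8B2 (a phospholipid flippase gene), 0.71 at JAZF1 and 0.77 at VASN. At NEDD9 the difference was 0.84, at HOXB3 0.86, at the FRMD3 start 0.94 and at SLC4A4 0.98. All adjusted p-values lay between 0.00436 (EMB) and 0.0357 (JAZF1). Control TWEAK replicate 1, without which 3 members were called, was the list in which the most members were lowest (42 of 181). It also had the lowest median level of members (3.50) and the lowest coverage of them (54.1%), and that median stood at percentile 21.9 of its own peaks, beside 26.0 to 31.2 in the other 7 lists.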

How the results depend on the processing

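Membership depended on the threshold. With a −log10 q-value of at least 3 in all 16 lists there were 113 members, of which 45 (39.8%) overlapped one of the 181, since raising the threshold also removed MDA-MB-231 peaks. With that limit in Hs578T lists only, 45 were left. Trimming every list to the 39544 peaks of the shortest gave 104 (70 overlapping), and requiring 50% of the region to be covered in each Hs578T list gave 49. Median widths under these 4 settings were 1677, 1526, 1525.5 and 1471 bp, and no run of 3 was found (0%), as with gaps of 20 kb. Members with a neighbour within 50 kb were 0% with the limit in Hs578T lists only and with 50% coverage. Near starts, 15.5% lay within 5 kb. Merging peaks up to 500 bp apart (182 members) and leaving out contigs other than 1 to 22 and X changed none of these by more than its error. The share on chromosome 4, an alternative added after the data were seen, stayed between 15.04% and 18.4%, and 14.6% to 17.5% with 1 list left out. The homeodomain share of centres, likewise added, was 9.73% to 14.3%.

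With 1 of 16 lists left out, members numbered 185 to 257, 8.37% to 10.4% were near a start, the median width was 1256 to 1332 bp, 1.37% to 3.08% were in runs of 3 and 6.69% to 10.9% had a neighbour. Members called by limma with 1 of 8 lists left out were 10 to 23 for TWEAK in control cells, 0 to 0 in KO cells, 0 to 4 for KO against control untreated, 22 to 40 with TWEAK and 3 to 11 for the difference. A lone list was then assumed to vary like the other groups. For KO against control untreated, 5 were called without centring, 5 with the highest fold enrichment and 2 with fold enrichment times covered length, which also left 2 for the difference and turned FRMD3 there to −0.34. Quantile normalization gave 18, 0, 6, 34 and 9 calls in that order, and keeping regions with a mean −log10 q-value of at least 3 gave 18, 0, 7, 33 and 9.

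Replicate numbers did not pair the lists (correlations of deviations −0.135 to 0.24). With a replicate block the counts were 21, 0, 3, 38 and 10 in the order above.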
